A study of Mus musculus with 18 samples.

Results

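Ranked by the expression of 5 Wnt target genes, 15 intestinal tumours of Apc Min mice were divided into a Wnt-target-high side of 5 tumours, a Wnt-target-low side of 5 and a middle of 5, out of 18 tumours in the series. The score of a tumour was the mean of log2(RPKM + 1) of Axin2, Nkd1, Notum, Lef1 and Lgr5, where RPKM is the authors' deposited read count scaled to gene length and library size. The tumours of both sides were thus chosen by measured expression, so the 5 genes describe the sides and were not tested between them. Every other gene was compared between the 5 highest and the 5 lowest tumours. The wild-type tumours 1 and 2 and the small intestinal tumour het 4 were not ranked.

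The mice were male and of the C57BL/6 strain, and all carried 1 Min allele of Apc (ApcMin/+), so no group has an intact pair of Apc alleles. They differed in Macrod2, which encodes an enzyme that removes ADP-ribose from proteins, and were Macrod2+/+ (wt), Macrod2-/+ (het) or Macrod2-/- (hom). Tumours were cut out at autopsy and sequenced in bulk, and the titles number the mice of each genotype, so each tumour was taken as 1 animal. The labels used here give no age, no tumour size and no batch. Since normal mucosa was not analysed here, high and low rank the tumours against each other only. In bulk RNA, fewer cells of a type and less RNA per cell cannot be told apart.

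In the Wnt pathway, Apc belongs to the complex that marks beta-catenin for destruction, and loss of Apc lets beta-catenin enter the nucleus and switch on target genes together with the TCF and LEF factors. Axin2, Nkd1 and Notum are targets that also restrain the pathway, as a scaffold of the destruction complex, an antagonist of Dishevelled and an enzyme that inactivates secreted Wnt ligands. Lef1 encodes one of the nuclear factors, and Lgr5 encodes an R-spondin receptor of intestinal stem cells. Adenomas of Apc Min mice arise when the remaining Apc allele is lost, and Paneth cells, which secrete antimicrobial peptides at the crypt base, need Wnt signalling to mature.

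TCF and LEF factors bind a short DNA motif, searched here on both strands as ATCAAAG and as its shorter core TCAAAG, which lies within the longer form. In RefSeq promoter windows of 300 bases (GRCm38.p6), ATCAAAG occurred in 3.73% of 32851 windows and TCAAAG in 16%. The windows of Sp5, the Wnt feedback factor described below, and of the score genes Axin2 and Nkd1 are printed to show what these promoters hold, on the plus strand at chr2:70474673-70474972, chr11:108920099-108920398 and chr8:88527383-88527682. Capitals mark TCAAAG or its reverse complement.
Sp5: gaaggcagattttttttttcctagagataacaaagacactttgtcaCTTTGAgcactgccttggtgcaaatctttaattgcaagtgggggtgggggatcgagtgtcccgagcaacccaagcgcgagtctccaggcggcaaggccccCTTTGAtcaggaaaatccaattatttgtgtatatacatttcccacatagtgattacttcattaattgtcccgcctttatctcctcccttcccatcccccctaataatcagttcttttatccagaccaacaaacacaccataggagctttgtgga
Axin2: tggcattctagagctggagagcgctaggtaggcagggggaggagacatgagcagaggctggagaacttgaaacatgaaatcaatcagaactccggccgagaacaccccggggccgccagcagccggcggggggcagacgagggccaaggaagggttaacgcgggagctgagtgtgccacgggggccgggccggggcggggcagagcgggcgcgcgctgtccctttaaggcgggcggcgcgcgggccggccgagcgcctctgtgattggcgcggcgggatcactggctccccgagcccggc
Nkd1: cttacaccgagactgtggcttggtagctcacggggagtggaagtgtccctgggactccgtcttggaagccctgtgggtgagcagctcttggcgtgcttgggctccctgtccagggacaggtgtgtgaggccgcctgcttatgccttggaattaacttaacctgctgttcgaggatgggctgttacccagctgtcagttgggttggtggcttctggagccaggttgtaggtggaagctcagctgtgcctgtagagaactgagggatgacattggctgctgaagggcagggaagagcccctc
The Sp5 window held 2 copies of TCAAAG, of which 1 was the longer ATCAAAG, and the windows of Axin2 and Nkd1 held 0. Of 4 windows of Lef1, 1 held 2 copies of TCAAAG and none of the longer form, and the other windows held 0. Such a match is a description of letters in the window, and its absence says nothing about binding elsewhere in the gene.

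Scores ran from 5.430 in het 6 to 6.266 in wt 3. The high side held wt 5 (6.093), hom 5 (6.11), hom 3 (6.22), het 1 (6.25) and wt 3 (6.266), and the low side held het 6 (5.430), wt 4 (5.82), het 3 (5.89), hom 1 (5.893) and hom 6 (5.957). The mean score was 6.188 on the high side and 5.798 on the low side, a gap of 0.39 log2 units. The edges of the sides were close to the middle tumours: wt 5 at 6.093 stood just inside the high side and het 5 at 6.087 just outside it, and hom 6 at 5.957 stood just inside the low side and het 2 at 6.041 just outside it. The unranked tumours wt 1, wt 2 and het 4 had scores of 5.47, 5.02 and 5.80.

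**Figure D1:**
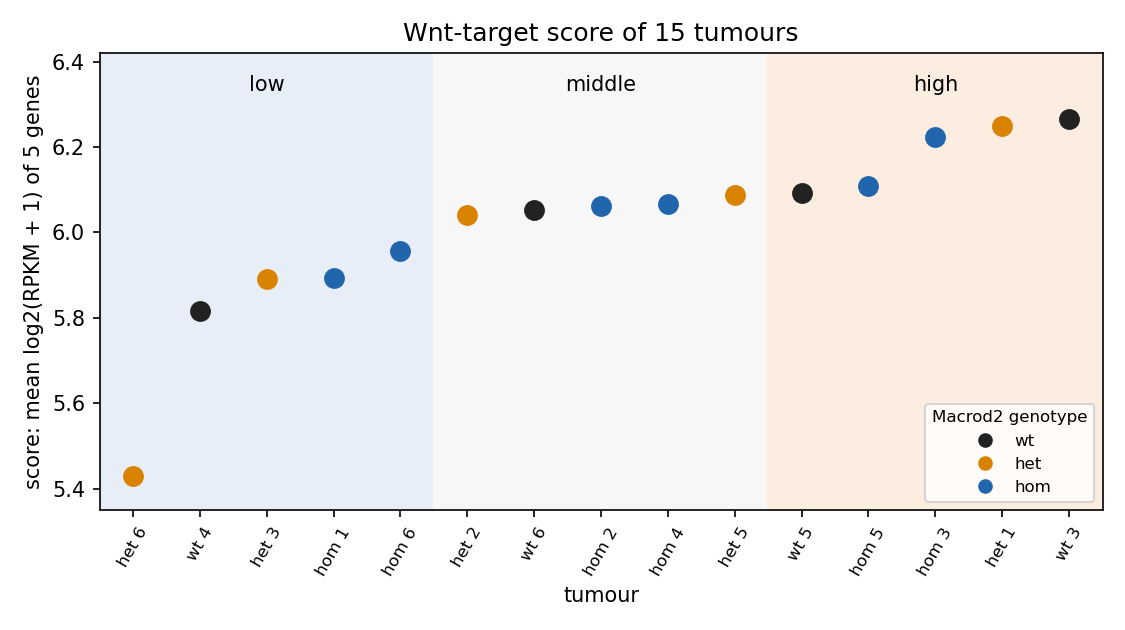
Wnt-target score (mean log2(RPKM + 1) of 5 genes, vertical axis) of each of 15 tumours in rank order, coloured by Macrod2 genotype, with the low, middle and high sides shaded. The axis does not start at 0; het 6 at 5.430 stands below the next tumour at 5.82, and genotypes are mixed on each side.

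Each side held all 3 genotypes. The high side held 2 wt, 1 het and 2 hom tumours, the middle 1 wt, 2 het and 2 hom, and the low side 1 wt, 2 het and 2 hom. The 4 wt tumours had a mean score of 6.057 ± 0.185 (SD), the 5 het tumours one of 5.939 ± 0.312 and the 6 hom tumours one of 6.052 ± 0.116. None of 3 exact two-sided permutation tests passed: het minus wt was -0.118 (exact p = 0.603, adjusted 0.905), hom minus wt was -0.005 (exact p = 0.952, adjusted 0.952) and hom minus het was 0.113 (exact p = 0.506, adjusted 0.905). These differences were smaller than the SD within het, which het 6 at 5.430 widened. That SD does not bear on hom minus wt, and no detectable size was computed. With these numbers of tumours the tests do not show that the genotypes had equal scores.

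Macrod2 itself was at 0.581, 0.639, 0.71 and 0.794 RPKM in the ranked wt tumours and at 0.32, 0.364, 0.366, 0.438 and 0.69 in the het tumours. In the hom tumours it lay between 0 and 0.0803 RPKM. The hom tumours were below all others, whereas the library labelled het 6, which had the lowest score, was within the wt range. Which part of Macrod2 the deletion removes was not used here, so reads outside it may remain.

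Library totals were 13971917 to 18878901 gene counts on the high side and 13529204 to 20857918 on the low side. In wt 3, on the high side, the ribosomal RNA precursor Rn45s took 27% of the counts, against 0.725% or less in the other 14 tumours, and the structural RNAs Rmrp and Rpph1 stood at 947 and 884 RPKM there. All 15 tumours carry the label large intestine, and the epithelial genes Epcam (1191 to 1779 RPKM) and Krt8 (1287 to 2436 RPKM) were high in each. The Hox genes that define the distal colon were at or near 0, with Hoxa13 at 0.0358 RPKM or less, Hoxd13 at 0.151 or less and Hoxb13 at 0.209 or less, and the colonocyte gene Car1 lay between 0.041 and 5.28 RPKM. Fabp6, the bile acid binding protein of the ileum, reached 22 to 3262 RPKM, against 3.39 to 4.51 in the 3 unranked tumours, where the proximal factor Gata4 stood at 49 to 52.9 RPKM compared with 14 or less in the ranked ones. The labelled site was therefore not matched by these markers, and the tumours are named here only by their score.

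The 3 feedback inhibitors among the score genes separated the sides, while the stem cell receptor did not. Axin2 was at 77.8, 78, 93.4, 98.9 and 104 RPKM on the high side and at 47.9, 51.9, 65.4, 71.4 and 76.8 RPKM on the low side, a fitted difference of 0.52 log2 units (SE 0.171). Notum was at 251, 261, 271, 291 and 312 RPKM against 148, 188, 200.4, 203 and 232 RPKM, a difference of 0.50 log2 units (SE 0.130). Nkd1 was at 195, 203, 211, 212 and 259 RPKM against 117, 157, 172, 178 and 189.8 RPKM, a difference of 0.39 log2 units (SE 0.137). In these 3 genes the lowest tumour of the high side lay above the highest of the low side.

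Lef1 was at 6.97, 7.81, 8.51, 9.71 and 11.5 RPKM on the high side and at 4.53, 6.99, 7.25, 7.45 and 7.59 RPKM on the low side, with 0.38 log2 units between them (SE 0.178). Lgr5 was at 24.5, 37.8, 42.3, 43.9 and 44.6 RPKM on the high side and at 30.2, 30.2, 34.4, 39 and 39.8 RPKM on the low side, with 0.14 log2 units between them (SE 0.219). Both overlapped: hom 3 had the highest Axin2, Notum and Nkd1 of all 15 tumours and the lowest Lgr5, and the highest Lgr5, 66.8 RPKM, was in wt 6 of the middle.

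**Figure D2:**
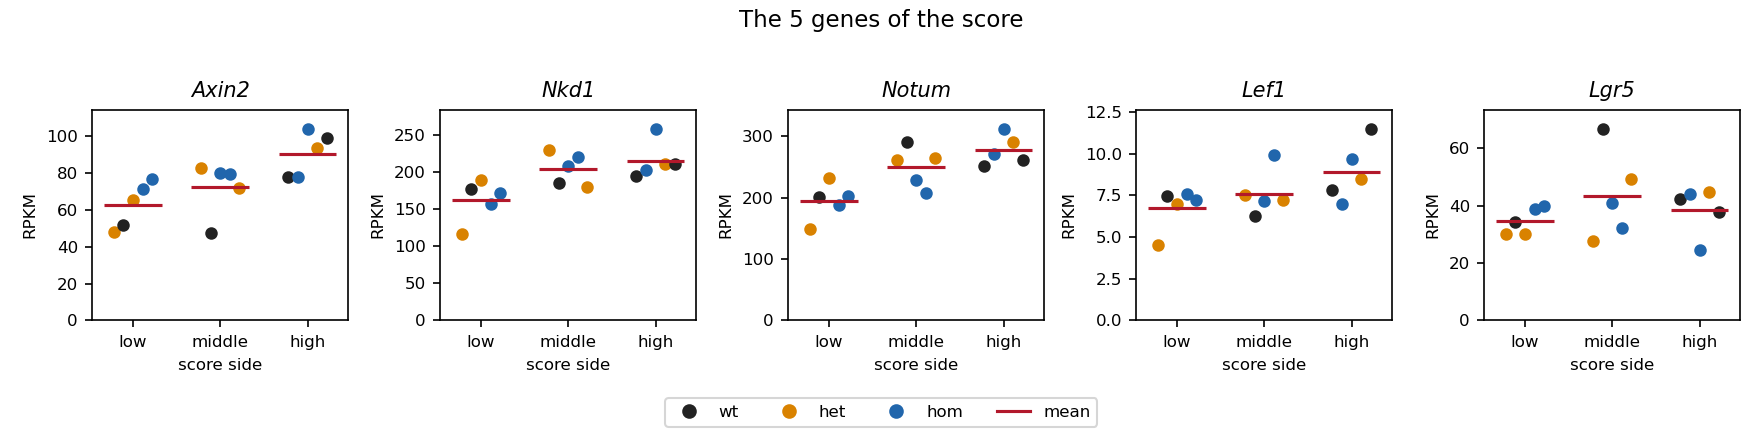
RPKM (vertical axes from 0) of the 5 score genes in the low, middle and high tumours, 5 points each coloured by genotype, with the mean as a red line. Axin2, Nkd1 and Notum do not overlap between the low and high sides, while Lgr5 ranges from 24.5 to 44.6 RPKM on the high side and from 30.2 to 39.8 RPKM on the low side. The sides were chosen by these values.

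Across all other genes, no single gene passed the adjusted threshold. In edgeR's quasi-likelihood fit over the 15 tumours, 0 of 14245 genes (0%) had an adjusted p under 0.05, and the smallest adjusted p was 0.85. At an unadjusted p under 0.05, 496 genes had higher estimates on the high side (3.48% of those tested) and 301 had lower estimates (2.11%). In 71 genes (0.498%) every high tumour was above every low tumour in RPKM, and in 21 (0.147%) every high tumour was below. DESeq2 called 5 genes on the same counts (0.0351%), limma-voom and limma-trend called 0, and the genes below are therefore given as values. The median difference over all genes was -0.04 log2 units, with 58.1% of the estimates below 0. Genes above a mean log2 CPM of 3 had a median 95% half-width of 0.333 log2 units, so a single-gene difference below that size was mostly not detectable. This width is for 1 gene before adjustment, and larger differences did not pass either, such as -1.26 for Clps (SE 0.243, adjusted p = 0.85 in edgeR). The count of 0 therefore does not show that no gene differed. The 797 genes at an unadjusted p under 0.05 became 470 without het 1, 1307 without hom 6 and 1650 without wt 5, with 0 past adjustment each time.

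Several Wnt feedback genes outside the score had higher estimates on the high side. Of the 45 tested genes on a list of Wnt feedback and target genes, 29 had higher and 16 lower estimates with a median of 0.15 log2 units, and 0 passed adjustment. At an unadjusted p under 0.05, 7 were higher and 1 was lower, against 3.48% and 2.11% of all genes. Sp5, a transcription factor that dampens Wnt target genes, was at 50.2, 63.8, 67.5, 72.1 and 108 RPKM on the high side and at 36.1, 38.4, 48.9, 53.3 and 54.5 RPKM on the low side. The fitted difference was 0.63 log2 units (SE 0.205, adjusted p = 0.85 in edgeR), and the sides overlapped through wt 5. Tcf7, a nuclear partner of beta-catenin, was at 51.2, 57.2, 58.2, 60.7 and 69.2 RPKM against 41.5, 46, 46.1, 47.1 and 54 RPKM, with a difference of 0.33 log2 units (SE 0.0953).

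Rnf43, a ubiquitin ligase that removes Wnt receptors from the cell surface, was at 52.6, 56.7, 64.6, 65.1 and 66.6 RPKM against 48.1, 50.2, 50.6, 50.7 and 59 RPKM, and the difference was 0.23 log2 units (SE 0.0991). Its homologue Znrf3 averaged 12.4 ± 1.44 RPKM (SD, n = 5) and 9.57 ± 3.17 RPKM, 0.36 log2 units apart (SE 0.207). The ligand Wnt6 spanned 7.42 to 16.8 RPKM on the high side and 2.51 to 9.07 on the low side, and the Wnt inhibitor Apcdd1 spanned 8.14 to 21.5 and 3.57 to 13.8 RPKM, with differences of 0.87 (SE 0.291) and 0.84 (SE 0.367) log2 units. The 1 member of the list below the unadjusted threshold in the lower direction was Fosl1, an AP-1 subunit, at -0.73 log2 units (SE 0.311). The estimates of Sp5, Tcf7, Rnf43, Znrf3, Wnt6, Apcdd1 and Fosl1 kept their sign in all 35 alternative fits. These fits reuse the same tumours and are not independent. Without wt 3 the list had 9 members at an unadjusted p under 0.05 in the higher direction and 0 in the lower, and without wt 5 it had 7 and 3. All genes at that threshold, in either direction, were 809 of 14373 without wt 3 and 1650 of 14355 without wt 5.

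Other well-known Wnt targets were close to level or had estimates of the opposite sign. Ascl2, a stem cell transcription factor, differed by -0.01 log2 units (SE 0.322) and was highest in het 6, wt 5 and wt 4, with 25.2, 24.4 and 21.7 RPKM. Myc differed by 0.10 log2 units (SE 0.220) and Sox9 by -0.05 (SE 0.193). The adhesion receptor Cd44 ran from 46.3 to 68.3 RPKM on the high side and from 59.2 to 98.5 on the low side, with a difference of -0.29 log2 units (SE 0.151). Cyclin D1 (Ccnd1) was at -0.28 (SE 0.209), and the crypt-sorting receptors Ephb2 and Ephb3 were at -0.12 (SE 0.116) and -0.36 (SE 0.203) log2 units. None of these 7 genes was at an unadjusted p under 0.05 in edgeR.

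Among ligands, receptors and secreted inhibitors, 14 of 31 tested genes had higher and 17 lower estimates with a median of -0.02 log2 units. Of these, 3 were at an unadjusted p under 0.05, all higher, against 3.48% of all genes. The sign of this median was kept in 22 of 35 alternative fits. Rspo4, an R-spondin that strengthens Wnt signals, spanned 0.53 to 1.08 RPKM on the high side and 0.144 to 0.586 on the low side (1.1 log2 units, SE 0.419), and the ligand Wnt2 spanned 0.0957 to 0.982 and 0.0263 to 0.193 RPKM (2.32 log2 units, SE 0.923). Both were low in level, and Wnt3a, Wnt16 and Dkk1 had no count in any of the 15 tumours. Among the destruction complex and its nuclear partners, 23 of 32 tested genes had higher estimates with a median of 0.08 log2 units, and 4 were at an unadjusted p under 0.05, all higher, against 3.48% of all genes. They included Csnk1e, a kinase of the pathway (0.32 log2 units, SE 0.116), and Tle1, a co-repressor (0.42, SE 0.161). Apc differed by -0.10 log2 units (SE 0.219) and beta-catenin (Ctnnb1) by 0.01 (SE 0.128), with 456 to 563 RPKM of Ctnnb1 on the high side and 383 to 579 on the low side.

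Stem cell genes as a list were near the background, with 13 of 33 tested estimates higher and a median of -0.06 log2 units. Besides Rnf43, Casp12 was the other member at an unadjusted p under 0.05 (0.92 log2 units, SE 0.357), with 2.01 to 5.36 RPKM on the high side and 0.942 to 2.92 on the low side. These 2 members were higher, against 3.48% of all genes.

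The lowest p-values of all belonged to secretory genes with lower levels on the high side. Clps, which encodes colipase, a cofactor of lipid digestion, lies at chr17:28558149-28560766 (mm10) and was at 9.83, 14.2, 16.4, 18.2 and 18.4 RPKM on the high side and at 24.1, 31.1, 33.7, 45.6 and 49.7 RPKM on the low side. The sides did not overlap, and the fitted difference was -1.26 log2 units (SE 0.243, adjusted p = 0.85 in edgeR). Itln1, a lectin of Paneth and goblet cells that binds microbial sugars and lies at chr1:171518122-171535294, was at 64.3, 83.6, 84.3, 96 and 131 RPKM against 125, 177, 287, 324 and 435 RPKM, a 2.95-fold lower fitted level (-1.56 log2 units, SE 0.312). Only wt 5 on the high side reached into the low range of Itln1.

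The alpha-defensin Defa17, an antimicrobial peptide of Paneth cell granules, was at 63.3, 84.3, 90.3, 106 and 201 RPKM against 194, 207, 298, 387 and 482 RPKM, and was -1.53 log2 units apart (SE 0.339). Its paralogue Defa3 gave -1.56 (SE 0.348). The defensin genes are near-identical copies, so reads may be split among them and their values are not independent. Gstk1, a glutathione transferase, did not overlap between the sides, at 24.2 to 30.7 RPKM on the high side and 31.1 to 50.2 on the low side (-0.61 log2 units, SE 0.145). In DESeq2, Clps and Itln1 (both adjusted p = 0.0047) and Defa17 and Defa3 (both adjusted p = 0.025) passed as lower on the high side, with -1.26, -1.56, -1.53 and -1.56 log2 units.

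Of 17 tested Paneth cell genes, 14 had lower and 3 higher estimates, with a median of -0.91 log2 units, and 8 were at an unadjusted p under 0.05, all lower, against 2.11% of all genes. These 8 were the antimicrobial genes Itln1, Defa17, Lyz1, Defa5, Ang4, Defa22, Defa26 and Defa21. Lyz1, the lysozyme of Paneth cells, was at 432, 437, 715, 721 and 785 RPKM on the high side and at 788, 955, 1459, 1875 and 2095 RPKM on the low side (-1.22 log2 units, SE 0.296), which did not overlap, with hom 1 at 788 close to the high range. Other genes on the list were level: Mmp7, the protease that activates defensins and a known Wnt target, differed by 0.0018 log2 units (SE 0.263), and the phospholipase Pla2g2a by -0.03 (SE 0.229). The summed RPKM of the list spanned 4431 to 7310.2 on the high side and 4324 to 8693 on the low side. Mmp7, Pla2g2a and Reg3g make up much of this sum, and so does Lyz1, at 432 to 2095 RPKM over the 15 tumours. The list's median was -1.11 log2 units without wt 3 and -1.26 without wt 5, with 8 members at an unadjusted p under 0.05 each time. As a slope on the score over the 15 tumours it was -0.48 with 5 such members, with 7 tumours a side it was -0.68 with 6, and over all 35 alternatives it lay between -1.26 and -0.36. All genes at that threshold, in either direction, were 809 of 14373 without wt 3 and 1650 of 14355 without wt 5. They were 2490 of 14245 for the slope and 517 of 15119 with 7 tumours a side.

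**Figure D3:**
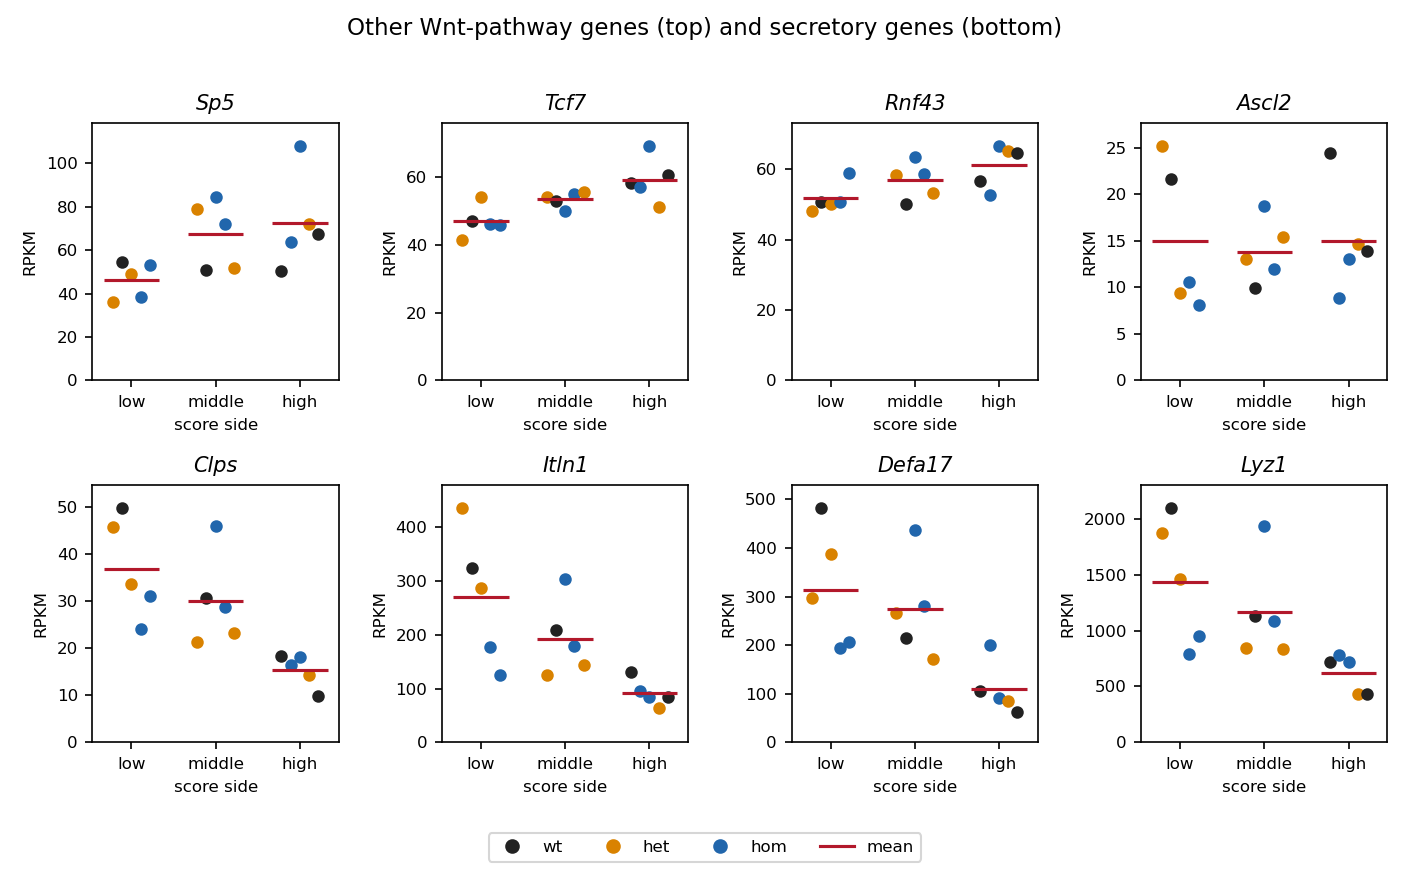
RPKM (vertical axes from 0) of 4 Wnt-pathway genes outside the score (top) and 4 secretory genes (bottom) in 5 low, 5 middle and 5 high tumours, coloured by genotype, with means as red lines. Clps and Lyz1 do not overlap between low and high; Ascl2 shows no separation, at 21.7 and 25.2 RPKM in 2 low tumours and 24.4 RPKM in 1 high tumour.

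With predicted models and genes averaging below a log2 CPM of 0 left out, the 5 of smallest p with higher estimates lay outside the pathway lists. The sides did not overlap in any of them, as in 71 of 14245 genes (0.498%) in that direction. Genes picked for a small p between these sides tend to have the sides apart, so this is a description only. Ntrk2, a neurotrophin receptor, was at 0.155 to 0.425 RPKM on the high side and 0.0163 to 0.0836 on the low side (2.24 log2 units, SE 0.539). These levels were low, and the estimate of Ntrk2 lay between 0.237 and 2.52 log2 units over the 35 alternatives. Fa2h, a fatty acid hydroxylase, was at 1.23 to 2.56 RPKM against 0.366 to 0.963 RPKM (1.25 log2 units, SE 0.306). Sun2, a protein of the inner nuclear membrane, was at 9.89, 10.2, 10.6, 12 and 12.4 RPKM against 6.04, 7.67, 7.84, 8.04 and 8.86 RPKM (0.51 log2 units, SE 0.123). The splicing kinase Srpk2 was at 4.65 to 5.12 RPKM against 3.51 to 4.03 RPKM (0.35 log2 units, SE 0.0871), and Susd1 was at 8.66 to 12.1 RPKM against 6.8 to 8.5 RPKM (0.43 log2 units, SE 0.108). DESeq2 passed Srpk2 (adjusted p = 0.0496) and not the other 4.

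Goblet, tuft and enteroendocrine genes had medians nearer to 0 than the Paneth list. Of 27 goblet cell genes, 24 had lower estimates with a median of -0.34 log2 units, and 3 were at an unadjusted p under 0.05, against 2.11% of all genes. Agr2, a disulfide isomerase that folds mucin, spanned 533 to 1456 RPKM on the high side and 1122 to 2738 on the low side (-0.87 log2 units, SE 0.353), and Spink4, a protease inhibitor of goblet cells, spanned 401 to 1538 and 1034 to 2681 RPKM (-0.89, SE 0.402). Without wt 3 the goblet median was -0.26 log2 units and 0 members were at an unadjusted p under 0.05. Of 20 tuft cell genes, Ptgs1 had a higher estimate (0.58 log2 units, SE 0.225) and the channel Trpm5 a lower one (-0.79, SE 0.363), and of 21 enteroendocrine genes 0 were at an unadjusted p under 0.05.

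Absorptive genes varied between tumours within each side more than between the sides. Of 30 small intestinal enterocyte genes, 28 had lower estimates with a median of -0.54 log2 units and a median SE of 0.91, and the median turned above 0 in 5 of 35 alternatives, among them limma-voom, limma-trend, genotype as a term and the slope on the score. The glucose transporter Slc2a2 was at 0.197, 0.214, 0.361, 0.373 and 2.09 RPKM on the high side and at 0.142, 0.4, 1, 3.61 and 9.45 RPKM on the low side (-2.20 log2 units, SE 0.944). The summed RPKM of this list ranged from 1155 to 20857 on the high side and from 371 to 20023 on the low side. Of 36 colonocyte genes the median was -0.09 log2 units, and its sign held in 19 of 35 alternatives and turned in the others, among them limma-voom, limma-trend, genotype as a term (0.17), the slope on the score (0.35) and without wt 5 (0.12). The sodium channel subunit Scnn1b did not overlap, at 0.693 to 1.47 RPKM on the high side and 0.0601 to 0.681 on the low side (1.80 log2 units, SE 0.524). The water channel Aqp8 had an estimate of 3.47 log2 units (SE 1.04) that rested on 5.18 RPKM in wt 5 and 3.36 RPKM in het 1, with 0.17 to 0.398 RPKM in the other 3 high tumours.

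Among 17 regional transcription factors, the median was -0.12 log2 units and kept its sign in 21 of 35 alternative fits. Onecut2, which is on that list, was at 16 to 21.5 RPKM on the high side against 12.2 to 16.7 RPKM on the low side (0.27 log2 units, SE 0.112).

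Genes of cell division had lower estimates on the high side as whole lists, without a single member that passed adjustment. All 48 mitosis and spindle checkpoint genes had lower estimates with a median of -0.24 log2 units and 0 at an unadjusted p under 0.05. Of 46 DNA replication genes, 45 had lower estimates with a median of -0.31 and 1 at that threshold, against 2.11% of all genes. The proliferation marker Mki67 was at 11.1, 15.7, 23.1, 26.3 and 41.6 RPKM on the high side and at 19.5, 22.9, 26.9, 40 and 40.6 RPKM on the low side. The highest value of all 15 tumours was that of wt 5 on the high side, and the lowest those of hom 3 and het 1 on the same side, so the side was not uniform. Without wt 5, the medians were -0.55 for mitosis and -0.59 for DNA replication, with 21 of 48 and 40 of 46 genes at an unadjusted p under 0.05, all lower, and still 0 after adjustment. The count over all genes also rose in that fit, to 1650 of 14355 in either direction from 797 of 14245. Of the high side, wt 5 had the highest level of both lists (0.723 and 0.558 log2 units above the 15-tumour mean), so leaving it out lowers that side by construction. The low tumours het 6 (0.626 and 0.481) and wt 4 (0.459 and 0.594) were also high. Over the 35 alternatives the medians lay between -0.666 and -0.0803 for mitosis and between -0.696 and -0.203 for DNA replication. With 7 tumours a side, the medians were -0.10 and -0.20 log2 units, 5 of the 48 mitosis genes had higher estimates, and 0 genes of either list were at an unadjusted p under 0.05.

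Growth-related lists also had lower estimates on the high side. Of 39 ribosome biogenesis genes, 38 had lower estimates (median -0.26 log2 units), among them the nucleolar factors Rrp12 (-0.37, SE 0.168) and Utp20 (-0.30, SE 0.137). The list stood highest in wt 4, het 6 and wt 5, which exceeded the 15-tumour mean by 0.562, 0.524 and 0.391 log2 units. It had 2 members at an unadjusted p under 0.05, both lower, against 2.11% of all genes. Without wt 5, the highest of the high side in this list, it had 16, with a median of -0.41 log2 units, against 1650 of 14355 genes in either direction. Over the 35 alternatives the median lay between -0.49 and -0.0833. Of 58 ribosomal protein genes, 49 had lower estimates (median -0.09 log2 units, same sign in 33 of 35 alternatives), and 0 were at an unadjusted p under 0.05. Without wt 3 this median was -0.0072, with 26 of 58 higher. All 50 nuclear genes of oxidative phosphorylation had lower estimates, with a median of -0.16 log2 units that became -0.10 without wt 3. Cytochrome c (Cycs), at -0.48 (SE 0.187), was the 1 member at an unadjusted p under 0.05, against 2.11% of all genes. All 24 cholesterol synthesis genes had lower estimates (median -0.23 log2 units), and 4 were at an unadjusted p under 0.05, against 2.11% of all genes. Msmo1, a sterol oxidase, was at 110 to 136 RPKM on the high side and 127 to 175 on the low side (-0.28, SE 0.106), and the sterol reductase Dhcr7 was at 25.6 to 41.7 against 31.2 to 49.3 RPKM (-0.38, SE 0.145). Of 26 genes of the unfolded protein response, 23 had lower estimates (median -0.28 log2 units), with Xbp1, its transcription factor, at -0.35 (SE 0.140) and the chaperone component Sdf2l1 at -0.81 (SE 0.361). Of these 26 genes, 3 were at an unadjusted p under 0.05 in the lower direction, against 2.11% of all genes. Without wt 5, 10 were lower and 1 higher at that threshold, against 1650 of 14355 genes in either direction.

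Interferon response genes had higher estimates on the high side, carried by a subset of its tumours. Of 49 tested genes, 43 had higher estimates with a median of 0.67 log2 units, and 16 were at an unadjusted p under 0.05, all higher, against 3.48% of all genes. Cxcl10, a chemokine that attracts T cells, was at 2.09, 3.17, 3.41, 5.87 and 8.74 RPKM on the high side and at 0.726, 0.854, 0.882, 1.79 and 2.07 RPKM on the low side (1.88 log2 units, SE 0.584), and the guanylate-binding protein Gbp3 was at 1.63, 1.88, 1.95, 7.27 and 9.3 RPKM against 0.749, 0.879, 1.03, 1.33 and 1.58 RPKM (1.98 log2 units, SE 0.606). The sides did not overlap in either gene, but het 1 and hom 5 were far above the other high tumours and near the middle tumour het 2, with 9.26 RPKM of Cxcl10 and 8.99 RPKM of Gbp3. As a list, the mean level relative to the average of the 15 tumours was 0.703 log2 units in hom 5 and higher still in het 1, and it was -0.374 in wt 5 and -0.493 in hom 3. All 8 tested genes of MHC class II had higher estimates (median 1.03 log2 units), with Cd74, the invariant chain, at 18.3, 26.5, 37.8, 106 and 238 RPKM on the high side and 21.5, 25, 37.8, 42.6 and 44.4 RPKM on the low side (1.31 log2 units, SE 0.582), where only hom 5 and het 1 stood above the low range. Of the 8 genes, 1 was at an unadjusted p under 0.05, against 3.48% of all genes. Without wt 3 there were 4, against 809 of 14373 genes in either direction. Without wt 5, which had the lowest level of this list among the 15 tumours (-1.066), there were 6, against 1650 of 14355. With 7 tumours a side, the interferon median was 0.37 log2 units, and 2 members were at an unadjusted p under 0.05, against 517 of 15119 genes in either direction.

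Immune cell lists had medians below 0, and most of them depended on how the tumours were divided. The median was -0.0027 log2 units for 26 macrophage genes, with the same sign in 14 of 35 alternatives, and -0.17 for 17 T and NK cell genes, with the same sign in 23. As a slope on the score, 23 of the 26 macrophage genes had higher estimates (median 0.38) and 15 of the 17 T and NK cell genes did (median 0.70), and with 4 tumours a side these medians were 0.47 and 0.33. The median was -0.07 for 26 neutrophil and cytokine genes (same sign in 25 of 35). Of 10 B and plasma cell genes, 8 had lower estimates (median -0.35 log2 units, same sign in 34 of 35), and of 15 mast cell and eosinophil genes 12 did (median -0.38, same sign in 33). Summed RPKM of the macrophage list spanned 101 to 237 on the high side and 132 to 265 on the low side, and that of the T and NK cell list 14.7 to 42.7 and 12.3 to 45. Cd68, a macrophage lysosomal protein, was at 6.83 to 12.9 RPKM against 6.18 to 8.14 RPKM (0.36 log2 units, SE 0.168), and Zap70, a T cell receptor kinase, was at 0.60 log2 units (SE 0.262). Blnk, a signalling adaptor known from B cells, was at 44 to 80.9 RPKM on the high side and 35.3 to 41.7 on the low side (0.45 log2 units, SE 0.156). Its sides did not overlap, as in 0.498% of all genes in that direction. Cd79a, the B cell receptor subunit, was at 0.191 RPKM or less on the high side and 0.129 to 0.5 on the low side (-1.66, SE 0.647). It reached 1.36 RPKM at most, in the middle, far below Blnk. Blnk is therefore not read here as a level of B cells, and which cells its RNA came from was not tested. Interleukin 11 (Il11), a cytokine of tumour stroma, was at 3.59 to 12.5 RPKM on the high side and 8.72 to 16 on the low side (-0.79, SE 0.318).

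Vessel genes had lower estimates on the high side in most fits. Of 30 endothelial genes, 24 had lower estimates with a median of -0.49 log2 units, and 7 were at an unadjusted p under 0.05, all lower, against 2.11% of all genes. Emcn, a sialomucin of endothelium, was at 1.27, 1.28, 1.32, 1.39 and 1.5 RPKM on the high side and at 1.37, 1.95, 2.85, 3.02 and 3.98 RPKM on the low side (-0.98 log2 units, SE 0.264), and Esm1, a marker of sprouting tip cells, was at 0.599 to 1.51 RPKM against 0.951 to 3.73 RPKM (-1.30, SE 0.387). The high tumours were alike in Emcn, and the low tumours hom 6, hom 1 and het 6 were highest. The list was 0.706 log2 units above the mean in hom 6. With 4 tumours a side, which left out hom 6 and wt 5, its median was -0.11 log2 units and 3 members were at an unadjusted p under 0.05, against 2566 of 14387 genes in either direction. The median turned above 0 in the fit with mouse number as a replicate block and in the score without Notum, and reached 0.09 at most. Of 44 fibroblast and matrix genes, 34 had lower estimates (median -0.21 log2 units). This median turned above 0 in 4 of 35 alternatives, among them the slope on the score (0.17, 32 of 44 higher) and 4 tumours a side (0.14, 30 higher). Among them, the basement membrane collagen Col15a1 was at -1.07 (SE 0.286) and the chemokine Cxcl12 at -1.16 (SE 0.388). Summed RPKM was 125 to 154 on the high side and 93.3 to 207 on the low side for endothelial genes, and 507 to 656 against 507 to 782 for fibroblast genes. Smooth muscle genes had a median of -0.15 log2 units, and the share of these cell types in the other differences was not tested.

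**Figure D4:**
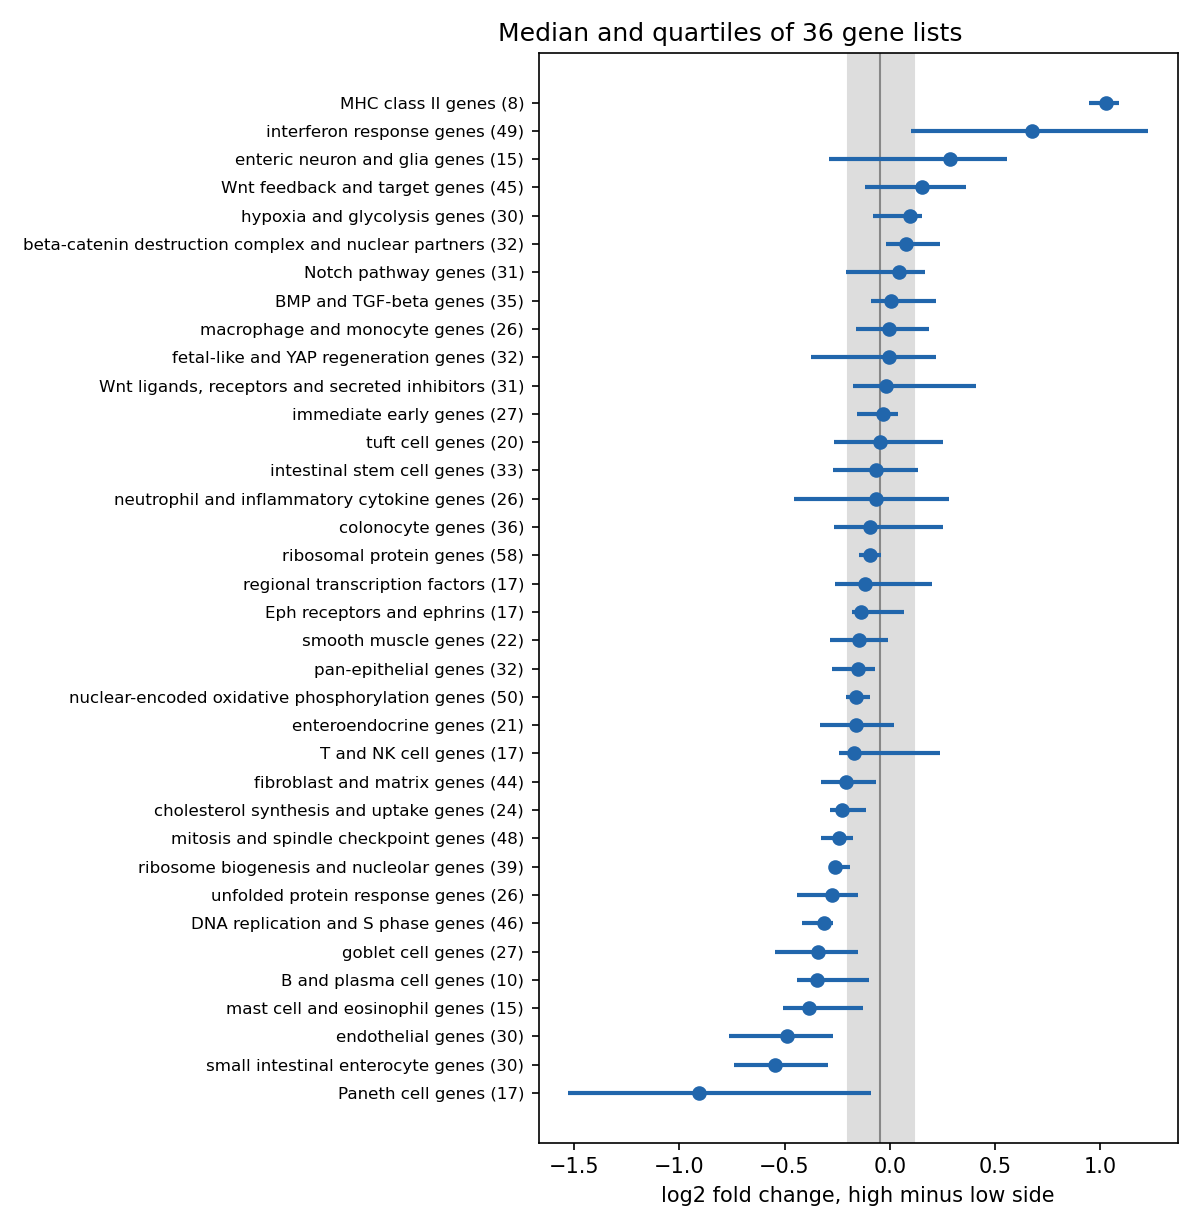
Median (points) and quartiles (lines) of the fitted log2 difference, high minus low side, for 36 gene lists with their number of tested genes, beside the median (grey line) and quartiles (grey band) of all 14245 genes. MHC class II (1.03) and interferon genes (0.67) lie highest and Paneth cell genes (-0.91) lowest; no member of any list passed adjustment in edgeR.

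**Figure D5:**
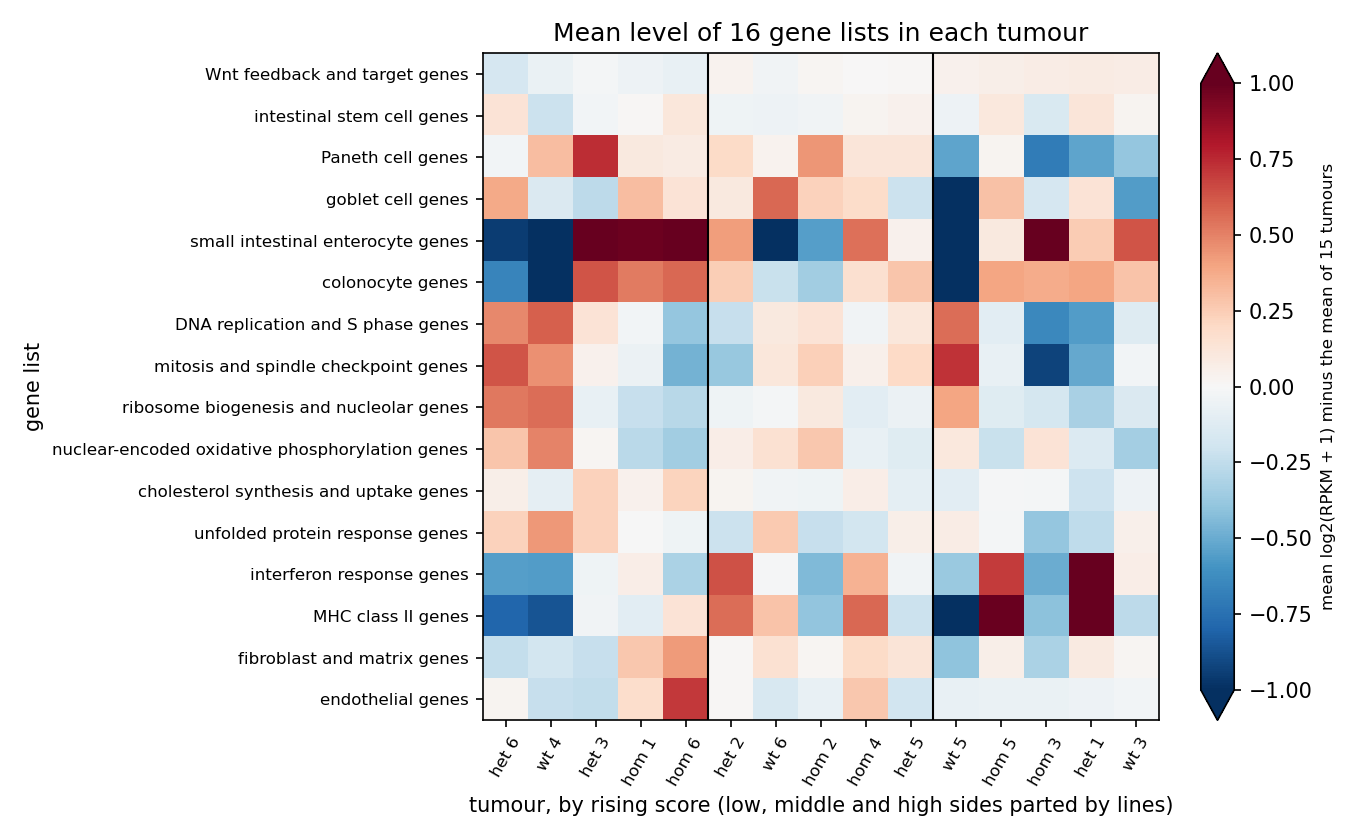
Mean log2(RPKM + 1) of 16 gene lists in each of the 15 tumours, relative to the mean of the 15 (colour, capped at -1 and 1), with tumours in order of the score and lines between the sides. The wt 5 column differs from the other high tumours in the cell division rows, and the interferon row is highest in het 1 and hom 5 on the high side.

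Regenerative and signalling programmes showed single members rather than shifts of whole lists. Of 32 fetal-like and YAP genes, the median was -0.0050 log2 units, with the same sign in 22 of 35 alternatives. Of these genes, 2 were at an unadjusted p under 0.05, both lower, against 2.11% of all genes. They were Tead4, the DNA-binding partner of YAP, at 0.934 to 2.27 RPKM on the high side and 1.56 to 4.64 on the low side (-0.98 log2 units, SE 0.301), and Il1rn, the interleukin 1 receptor antagonist, at 31.9 to 55.3 against 48.4 to 83.5 RPKM (-0.61, SE 0.224). Among Notch genes, the median was 0.04 log2 units, and Lfng, a glycosyltransferase that tunes Notch receptors, was at 13.3 to 22.1 RPKM against 9.91 to 16.6 RPKM (0.47, SE 0.174). Among BMP and TGF-beta genes, the median was 0.01 log2 units, with the BMP target Id2 at 0.36 (SE 0.142). Of 30 hypoxia and glycolysis genes, 18 had higher estimates (median 0.10 log2 units), with carbonic anhydrase Car12 at -0.76 (SE 0.237) and the mitophagy receptor Bnip3 at 0.66 (SE 0.280).

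The 5 middle tumours were not used to choose the genes named from the 2 sides, although the fit shares its estimate of the spread with them. For 56 of 90 named genes outside the score, the middle median lay between the medians of the sides. Most of these genes were named for a small p between the sides, which sets the side medians apart. The share over all genes tested was not taken, so the count is a description only. Median Clps was 28.7 RPKM in the middle, against 16.4 on the high side and 33.7 on the low side, and median Itln1 was 179.8 RPKM, against 84.3 and 287. Median Sp5 was 72.1 RPKM in the middle, above the 67.5 of the high side, so Sp5 did not follow the order of the score there. The unranked tumours wt 1, wt 2 and het 4, whose scores were as low as those of the low side, had 63.9, 51.2 and 55 RPKM of Clps and 38, 36.2 and 42 RPKM of Sp5. Other genes did not all place them with the low side. Lyz1 was at 1381, 485 and 981 RPKM there, with wt 2 inside the high side's 432 to 785. Defa5 was at 23.6, 10.5 and 16.1 RPKM, against 10.6 to 29.3 on the high side and 15.9 to 61 on the low side. Gata4 was at 49 to 52.9 RPKM in these tumours, so regional type and score cannot be told apart in them.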

How the data were processed

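Tumour RNA was extracted with AllPrep and turned into libraries with a TruSeq Stranded Total RNA kit, per the labels' protocols, although their molecule entry reads polyA RNA. The authors deposited whole-number read counts for 24062 genes and RPKM values, which are reads scaled by gene length and by library size with TMM factors, per the file headers. A deposited column of another kind holds gene length. The submitters' processing notes name Trimmomatic, TopHat, featureCounts, Subread 1.4.5-p1 and mm10, without options. Which strand setting the counting used is not given in the sources used here. Values of genes with an antisense neighbour are therefore uncertain.

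The score used the deposited RPKM. The other genes were tested on the counts in edgeR 4.0.16 (R 4.3.3; TMM factors, filterByExpr, robust quasi-likelihood) in 1 fit of the low, middle and high sides over 15 tumours. Of 14250 genes fitted, 14245 were tested without the 5 score genes, with Benjamini-Hochberg adjustment and a threshold of 0.05. DESeq2 1.42.0 and limma 3.58.1 were alternatives, and the score was compared between genotypes by exact permutation (scipy 1.17.1). The scripts were tested on simulated data. Replicates are tumours of separately numbered mice, and the lowest chi-square per degree of freedom between libraries was 17.86, so no library repeated another. The title numbers name mice and do not pair the sides.

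Lists were described by counts and medians, with no set test. The tumours, the score genes and the lists were chosen with earlier results of these data known. Named were the score genes, 14 set genes, the 5 of smallest p in each direction (leaving out predicted genes and those averaging below a log2 CPM of 0) and the 2 of smallest p per list, of which some are not reported here. Outside this rule, Wnt6, Apcdd1, Fosl1, Lyz1, Defa5, Ang4, Defa21, Defa22, Defa26, Mmp7, Pla2g2a, Reg3g, Mki67 and the genes of the site check were chosen after their values were seen. Gene positions are from GENCODE M21 and promoters from RefSeq, both on GRCm38 (mm10). A list's level in a tumour is its mean log2(RPKM + 1) relative to the 15 tumours.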

Additional observations from a re-analysis of the deposited data

Results flagged for a closer look

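Within a side or genotype, 193 groups of values (the score, and each named gene on each side) were checked for 1 tumour far from the others by Dixon's test, and 10 were past its 95% limit, about the 1 in 20 that chance gives. Lef1 at 4.53 RPKM in het 6 was below the other low tumours. Lgr5 at 24.5 RPKM in hom 3 was below the other high tumours. Rnf43 at 59 RPKM, Tle1 at 10 RPKM and Aqp8 at 0.653 RPKM were highest by far in hom 6 on the low side. Slc2a2 at 2.09 RPKM and Lct, the intestinal lactase, at 3.56 RPKM were highest by far in hom 3 on the high side. Tph1, the serotonin synthesis enzyme of enteroendocrine cells, was at 3.8 RPKM in het 3 on the low side. Atp5g1, a subunit of ATP synthase, was at 90.6 RPKM in wt 5, and Cxcl12 at 0.622 RPKM in hom 5, both highest by far on the high side.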

How the results depend on the processing

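The count of 0 genes past adjustment held in all alternatives but DESeq2, with 5 genes (Clps, Itln1, Defa17, Defa3 and Srpk2), and the ranking of all 17 large intestinal tumours, with 29, which puts wt 1 and wt 2 on the low side. The 797 genes at an unadjusted p under 0.05 became 1462 with genotype as a term, 2490 with a slope on the score, 2566 with 4 and 517 with 7 tumours a side, 1695 with the score without Notum, 2242 without Lgr5 and 2481 with 17 tumours ranked, and ranged from 470 (without het 1) to 1650 (without wt 5) when 1 tumour was left out; the cause was not tested. With the mouse number as a replicate block, 0 genes passed and 719 were at an unadjusted p under 0.05; the numbers name mice and pair nothing. Among named genes outside the score, 78 of 90 kept their sign in all 35 alternatives. Most of these genes were named for a small p in the main fit, which favours a kept sign. The alternatives also reuse the same tumours, and some gave the same counts as another, such as the score without Axin2 and without Lef1. The count is therefore a description only.

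Score differences between genotypes had adjusted p of 0.5 to 1 throughout, and 10 of 75 turned sign. With 17 tumours ranked, het minus wt was 0.154 and hom minus wt 0.266. Hom minus wt was 0.019 without Notum and 0.062 without Lgr5. Leaving out 1 tumour gave -0.198 to 0.010 for het minus wt, -0.085 to 0.065 for hom minus wt and -0.015 to 0.190 for hom minus het.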
